A study of Mus musculus with 6 samples.

Results

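The genes described here are the corticosteroid receptors and a set of genes that glucocorticoids are known to induce, 9 of the 55367 gene symbols in the deposited FPKM table. They were taken by symbol: the receptors Nr3c1 and Nr3c2 and the target genes Tsc22d3, Sgk1, Fkbp5, Per1, Ddit4, Zbtb16 and Errfi1. All 9 symbols occurred once. FPKM scales sequenced fragments by transcript length and by all mapped fragments of the library, so levels of different genes can be set side by side, while the number of reads behind a value, and with it the counting error, is unknown. The 6 Smart-seq2 libraries were made from tdTomato-positive cells that were sorted out of the dentate gyrus, a part of the hippocampus, in mice of the genotype TRAP2;Ai9, written Fos-iCreERT2; Rosa26-LSL-tdTomato in the study's design, and all carry the label of 1 batch. In these mice a tamoxifen-dependent Cre sits under the control of Fos and switches on a red reporter kept at the Rosa26 locus, so any cell type in which Fos was active during labelling can be red. All mice had gone through learned helplessness, a procedure with stress that cannot be escaped (LH+). The 3 libraries called NR came from mice without running and the 3 called Run from mice with voluntary running, for which the study's design gives 28 days. Sex, age and how many cells or animals stand behind a library are not given in the sources used here, so p-values capture library-to-library spread alone, possibly a technical one. Values listed for a group follow the order of its replicates 1, 2 and 3.

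Corticosterone, the main glucocorticoid of mice, is released from the adrenal gland during stress and reaches the hippocampus, which carries both receptors. The mineralocorticoid receptor, product of Nr3c2, binds the hormone with high affinity and is largely occupied at rest, whereas the glucocorticoid receptor, product of Nr3c1, has lower affinity and is engaged at the daily peak and under stress. Both are held in chaperone complexes until hormone binds, then enter the nucleus and bind palindromic DNA sites. Fkbp5 encodes a co-chaperone that lowers the receptor's hormone affinity and is itself induced, which closes a feedback loop. Several of the target genes also respond to other signals, such as neuronal activity or the circadian clock for Per1 and energy or oxygen shortage for Ddit4.

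The promoters of 3 target genes are shown because their genes are the most abundant ones (Sgk1 and Tsc22d3) or the tested one whose groups did not overlap (Errfi1). The table holds 6, 3 and 2 promoters of Sgk1, Tsc22d3 and Errfi1, and the one with the most motif matches is printed for each, so that matches are seen here by choice. The sequences are from RefSeq (build GRCm38.p6) and run from 250 bases before to 50 bases after an annotated transcript start, 5′ to 3′ on the gene's strand. Capitals mark matches on either strand to the receptor palindrome (GNACA and TGTNC separated by NNN), to its monomer site TGTTCT, to the cyclic AMP response element TGACGTCA or to the E-box CACGTG.
Sgk1 (chr10:21993640-21993939, plus strand): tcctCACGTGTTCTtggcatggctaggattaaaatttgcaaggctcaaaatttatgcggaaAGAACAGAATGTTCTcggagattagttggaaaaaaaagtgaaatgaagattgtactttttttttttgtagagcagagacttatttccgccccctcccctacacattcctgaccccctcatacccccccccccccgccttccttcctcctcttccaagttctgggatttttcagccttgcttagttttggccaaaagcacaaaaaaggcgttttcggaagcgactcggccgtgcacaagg
Tsc22d3 (chrX:140600473-140600772, minus strand): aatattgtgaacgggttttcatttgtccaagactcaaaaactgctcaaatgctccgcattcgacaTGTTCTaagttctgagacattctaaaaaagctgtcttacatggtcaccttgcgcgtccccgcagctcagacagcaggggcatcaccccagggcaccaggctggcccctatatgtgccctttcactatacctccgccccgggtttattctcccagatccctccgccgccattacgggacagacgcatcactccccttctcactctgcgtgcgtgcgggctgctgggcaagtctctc
Errfi1 (chr4:150854820-150855119, plus strand): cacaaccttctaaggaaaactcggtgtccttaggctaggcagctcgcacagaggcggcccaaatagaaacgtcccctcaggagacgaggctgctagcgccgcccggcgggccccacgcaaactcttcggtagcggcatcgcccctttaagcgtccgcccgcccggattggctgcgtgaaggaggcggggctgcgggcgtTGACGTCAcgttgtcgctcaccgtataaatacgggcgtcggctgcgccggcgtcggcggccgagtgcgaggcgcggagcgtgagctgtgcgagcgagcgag

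The promoter table matched 7 of the 9 genes, with 16 promoters. The receptor palindrome was found in 1 of them, the Sgk1 promoter above, starting 188 bases before the transcript start, against 0.475% of 32851 promoters of the same length. The palindrome there overlaps 2 monomer matches, and a further monomer match overlaps an E-box near the 5′ end. The monomer site occurred in 4 of the 16 promoters, those of Sgk1 and Tsc22d3, and in 19.0% of all promoters. The cyclic AMP response element occurred in 1, the Errfi1 promoter above, and in 1.79% of all. The E-box occurred in 3, of Sgk1, Per1 and Fkbp5, and in 7.15% of all. These matches describe letters in short windows, and the libraries hold no binding data.

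The libraries, labelled as neurons, were set against markers of the cells that the sort could hold. Of 9 neuronal markers, 4 were at 1 FPKM or more in every library, but none of 8 granule neuron markers was. Lct was listed at 0 throughout, and Prox1 had 0.285, 17.8 and 0.417 FPKM in NR against 3.65, 39.9 and 15.1 in Run. Of the 5 granule neuron markers tested, 3, Prox1 among them, had positive log2 differences, Run minus NR. The other 2, C1ql2 and Plk5, had negative ones. Summed granule neuron markers ranged from 41.3 to 161 FPKM in NR and from 34.8 to 173 in Run. Summed neuronal markers ranged from 303 to 904 FPKM in NR and from 647 to 1153 in Run. Summed astrocyte markers, of which 8 of 9 were at 1 FPKM or more in every library, were higher, at 2526 to 4671 and 2689 to 5279. The ranges in NR and Run were 257 to 1473 and 183 to 898 for 8 oligodendrocyte markers, 55.0 to 572 and 179 to 866 for 9 microglial markers, 846 to 2313 and 848 to 1674 for 7 endothelial markers and 489 to 1438 and 317 to 743 for 6 mural cell markers. For 4 ependymal and choroid plexus markers they were 50.3 to 159 and 27.0 to 81.7. For 6 interneuron markers, of which Sst, Pvalb and Slc32a1 were listed at 0 throughout, they were 1.41 to 43.4 and 23.7 to 156. Gad1 was at 1 FPKM or more in 5 libraries, and the 156 was Vip alone in Run replicate 3. The receptors and most of the targets are known to be expressed by glia and vessels as well as neurons, and the part of those cells in the values of the receptors and targets was not tested.

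The receptor for glucocorticoids was measured in both groups. Nr3c1 (chromosome 18, 39410545 to 39519421, minus strand) had 23.3, 5.52 and 0.00662 FPKM in NR replicates 1, 2 and 3 and 13.3, 16.7 and 16.6 FPKM in Run replicates 1, 2 and 3. The Run libraries lay close together and inside the range of the NR libraries, where replicate 1 was the highest of all 6 and replicate 3 was near 0. The difference in mean log2(FPKM + 1), Run minus NR, was 1.60 ± 1.496 (SE; limma adjusted p = 0.978, 95% interval -1.94 to 5.14). It was 0.38 without NR replicate 3 and 2.68 without NR replicate 1.

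The mineralocorticoid receptor gene showed values in NR libraries alone. Nr3c2 (chromosome 8, 76899442 to 77245012, plus strand) had 17.2, 0.0548 and 21.3 FPKM in NR and was listed at 0 in all 3 Run libraries. The NR libraries with a clear value were replicates 1 and 3, and the groups did not overlap, although NR replicate 2 was close to 0. With values of at least 1 in 2 libraries the gene was below the filter of the main test, which asked for FPKM of at least 1 in at least 3 libraries. When every gene with any value was tested, its log2 difference was -2.91 ± 1.55 (SE; limma adjusted p = 0.712), and its size is set largely by the added pseudocount. Such patterns were common in the table. Of 2642 genes with FPKM of at least 1 in exactly 2 libraries, 554 (21%) had both in NR, whereas 480 (18.2%) had both in Run. For 263 (9.95%) both were in NR with every Run library listed at 0, as for Nr3c2. Whether a listed 0 is missing RNA or an estimate that failed was not tested. Of 12 housekeeping genes, 9 were at 1 FPKM or more in every library. Tbp, a transcription factor gene among the 12, was listed at 0 in the 3 Run libraries and had 4.49, 0.0307 and 4.97 FPKM in NR.

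**Figure D1:**
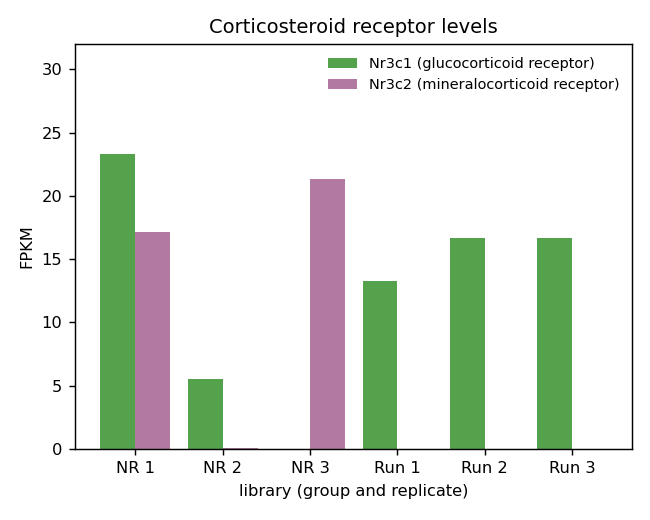
FPKM (y axis) of the glucocorticoid receptor gene Nr3c1 and the mineralocorticoid receptor gene Nr3c2 in each of the 6 libraries (x axis), 1 bar per gene and library. Both genes have tall bars together in NR replicate 1 (23.3 and 17.2 FPKM), NR replicate 3 has Nr3c2 alone at 21.3 FPKM, and the 3 Run libraries have Nr3c1 alone at 13.3 to 16.7 FPKM.

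The receptors differed in which libraries carried them, as the plot of receptor levels shows. NR replicate 1 held both, NR replicate 3 held Nr3c2 with Nr3c1 near 0, and the other 4 libraries held Nr3c1 with Nr3c2 at or near 0. Summed over both receptors, the level was 40.5, 5.58 and 21.3 FPKM in NR against 13.3, 16.7 and 16.6 FPKM in Run, so the Run libraries lay within the range of NR. In RNA from sorted cells, fewer cells that express a gene and less RNA per cell cannot be told apart.

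Tsc22d3, which encodes the glucocorticoid-induced leucine zipper protein GILZ, an anti-inflammatory mediator, was the most abundant gene of the set. It (chromosome X, 140539528 to 140600659, minus strand) had 134, 39.5 and 147 FPKM in NR against 194, 319.6 and 142 in Run. NR replicate 2 was the lowest and Run replicate 2 the highest, and Run replicate 3 fell between 2 NR libraries. Means were 107 ± 58.6 and 219 ± 91.1 FPKM (SD, n = 3 each), and the log2 difference of 1.16 ± 0.68 (SE) had a limma adjusted p = 0.978, with a 95% interval of -0.46 to 2.77. Without NR replicate 2 the difference was 0.56.

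Sgk1, a kinase gene whose product raises the number of ion channels and transporters at the cell surface, came next by the mean over all 6 libraries. It (chromosome 10, 21882184 to 21999903, plus strand) had 50.9, 5.82 and 119.7 FPKM in NR against 42.0, 203 and 169 in Run. Run replicates 2 and 3 were above every NR library, while Run replicate 1 was below NR replicates 1 and 3. The means of 58.8 ± 57.3 and 138 ± 84.9 FPKM (SD, n = 3 each) had SDs close to their own size in NR. The log2 difference was 1.71 ± 1.23 (SE; limma adjusted p = 0.978, 95% interval -1.19 to 4.61) and it was 0.53 without NR replicate 2 and 2.60 without NR replicate 3. Over the 6 libraries Sgk1 spanned a 34.9-fold range, against 8.10-fold for Tsc22d3.

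Ddit4, which encodes REDD1, an inhibitor of the growth kinase complex mTORC1, was the other target gene at 1 FPKM or more in every library. It (chromosome 10, 59949669 to 59951834, minus strand) had 10.6, 1.94 and 6.07 FPKM in NR against 17.3, 5.01 and 19.1 in Run. Run replicates 1 and 3 were above every NR library and Run replicate 2 was below 2 of them. Means were 6.21 ± 4.34 and 13.8 ± 7.66 FPKM (SD, n = 3 each), and the log2 difference was 1.06 ± 1.26 (SE; limma adjusted p = 0.978, 95% interval -1.93 to 4.06). It was 0.52 without NR replicate 2 and 1.62 without Run replicate 2.

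Per1, a repressor of the circadian clock that is also induced by activity, had 0, 0.0111 and 20.8 FPKM in NR against 3.39, 4.40 and 36.7 in Run. The 3 Run libraries all carried it, whereas NR replicate 3 alone did so in its group, at a level between those of the Run libraries. It lies on chromosome 11 (69095217 to 69109960, plus strand). The log2 difference was 1.78 ± 1.67 (SE; limma adjusted p = 0.978, 95% interval -2.16 to 5.73). Without NR replicate 3, the remaining NR values were both near 0 and the difference was 3.26 (limma unadjusted p = 0.0316, adjusted p = 0.900, against 0.714 to 1 over all alternatives). Leaving out other libraries gave 0.80 without Run replicate 3, 1.04 without NR replicate 1 and 1.05 without NR replicate 2.

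Errfi1 was the only tested gene of the set with lower values in Run. It encodes MIG6, a feedback inhibitor of the EGF receptor family, and lies on chromosome 4 (150853919 to 150868892, plus strand). It had 71.0, 19.8 and 40.3 FPKM in NR against 11.9, 4.85 and 0 in Run. Every Run library was below every NR library, with the narrowest gap between NR replicate 2 and Run replicate 1. The log2 difference was -3.23 ± 1.37 (SE), with a limma unadjusted p = 0.0512, an adjusted p = 0.978 and a 95% interval of -6.47 to 0.02. In order of p, Errfi1 was number 311 of the 6155 tested genes. Of the 200 tested genes nearest to it in mean FPKM, 74.5% were listed at 0 in at least 1 library, as Errfi1 was in Run replicate 3. Without that library the difference was -2.19 (limma adjusted p = 0.966). The receptors on which its product acts were barely detected: of Egfr, Erbb2, Erbb3 and Erbb4, a single value was above 1 FPKM, 32.6 for Erbb2 in NR replicate 1.

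The other target genes were detected in few libraries. Fkbp5, the co-chaperone gene (chromosome 17, 28399094 to 28517527, minus strand), had 0, 4.79 and 0 FPKM in NR against 0.212, 9.13 and 0 in Run. Replicate 2 of each group therefore held all values above 1. Zbtb16, which encodes the zinc finger repressor PLZF (chromosome 9, 48654297 to 48836222, minus strand), had 23.6 FPKM in Run replicate 1 and was listed at 0 in the other 5 libraries. Neither passed the filter of the main test. A value in a single library carries no information on the groups: of 3987 genes with FPKM of at least 1 in exactly 1 library, that library was Run for 1877 (47.1%).

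**Figure D2:**
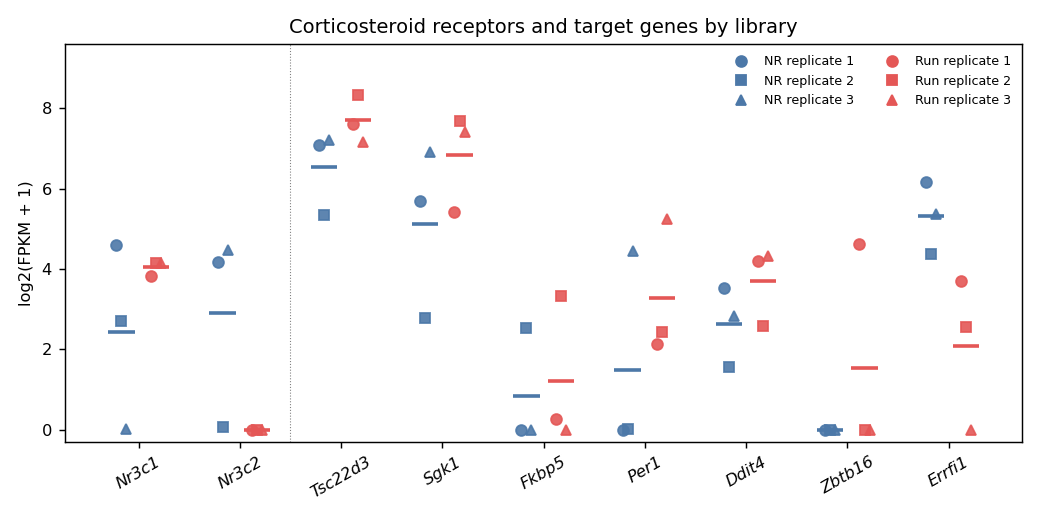
Level on the log2(FPKM + 1) scale (y axis) of the 9 genes (x axis), with 1 point per library, the marker shape giving the replicate number, and short lines at group means; the dotted line separates receptors from targets. Errfi1 has its 3 Run points below its 3 NR points, Nr3c2 has its Run points at 0, and for the other 7 genes the points of the groups overlap.

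Read across genes, Tsc22d3 was the highest of the 9 in 5 libraries and Sgk1 in Run replicate 3. Errfi1 stood above Sgk1 in NR replicates 1 and 2 and held rank 6 in each Run library, tied at 0 in replicate 3, so the order by pooled means does not hold in each group. Tsc22d3 alone made up 37.1% to 63.5% of the FPKM summed over the 9 genes. Mean levels over the 6 libraries were 163 FPKM for Tsc22d3, 98.4 for Sgk1, 24.7 for Errfi1, 12.6 for Nr3c1, 10.9 for Per1, 10.003 for Ddit4, 6.42 for Nr3c2, 3.94 for Zbtb16 and 2.36 for Fkbp5. The ranges of neighbours in this order overlapped throughout. The summed level was 307, 77.4 and 355 FPKM in NR against 306, 563 and 384 in Run, with NR replicate 2 far below the other 5 libraries. That library had the lowest value of Tsc22d3, Sgk1 and Ddit4, yet it held a value of Fkbp5 and the most genes at 1 FPKM or more of all libraries (7355, against 5426 to 6291). The mean log2 level over the 9 genes was 3.03 ± 0.76 in NR against 3.37 ± 0.21 in Run (SD, n = 3 each). The difference of 0.34 turned to -0.10 without NR replicate 2.

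Tsc22d3 and Sgk1 had a Pearson r of 0.85 on the log2 scale over 6 libraries, given as a description because the points share their library and its composition. It rested on NR replicate 2, the lowest library for both, without which r was 0.37 over 5 libraries. Tsc22d3 and the glucocorticoid receptor gene had r = 0.24, and Sgk1 and the receptor gene 0.05, which became 0.75 and 0.79 without NR replicate 3. Errfi1 and Nr3c2 had r = 0.73, and 0.60 to 0.86 when a library was left out. Both genes had all Run values below all NR values, so this r includes that difference between the groups. Among the 1751 genes at 1 FPKM or more in every library, those most like Tsc22d3 were Msmo1, a cholesterol synthesis gene (r = 0.95), G3bp2, a stress granule gene (0.95), and 1110004F10Rik (0.94). Those most like Nr3c1 were Morf4l1-ps1 (0.98), the lipogenic regulator gene Thrsp (0.97) and the kinase gene Mapk3 (0.97). Among those most like Fkbp5, which rests on 2 libraries, were Pnp2 (0.94) and mt-Co3 (0.90).

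In the comparison of runners with non-runners, none of the 9 genes passed. Of the 6 tested, 0 reached an adjusted p under 0.05 by limma, as did 0% of all 6155 tested genes, and none reached an unadjusted p under 0.05, against 304 genes (4.94%) of all. NR and Run were fully apart for 1 of the 6, Errfi1, and for 8.95% of all tested genes, 4.19% with Run below and 4.76% with Run above. Of the 6, 5 had a positive log2 difference, where 48.9% of all tested genes did. Their median was 1.38, beside -0.03 over all tested genes, and both are descriptions of the genes that passed the filter. The 3 genes that did not pass the filter stand outside these counts, and their log2 differences were -2.91 for Nr3c2, 0.36 for Fkbp5 and 1.54 for Zbtb16. The typical tested gene had a log2 difference of 0.96 in size with an SE of 1.51. The SEs of the 6 ran from 0.68 for Tsc22d3 to 1.67 for Per1, so their 95% intervals all contained 0 and each extended to 2.77 or further from 0. A missing call therefore does not show equal levels.

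**Figure D3:**
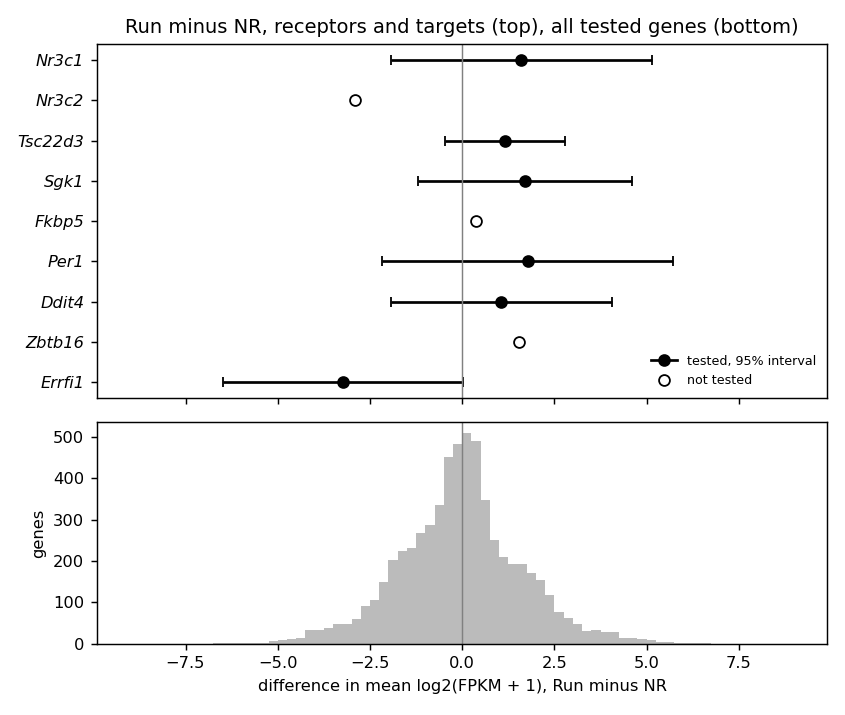
Top, difference in mean log2(FPKM + 1), Run minus NR (x axis), for each of the 9 genes, with 95% intervals from limma for the 6 tested genes and open circles for the 3 that did not pass the filter; bottom, number of genes (y axis) over the same axis for all 6155 tested genes. All 6 intervals contain 0, with that of Errfi1 ending at 0.02, and the differences of the 9 genes lie within the spread of all genes.

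The machinery that keeps the receptors ready for hormone was well covered. Of 13 chaperones and co-chaperones, 11 were tested and 7 were at 1 FPKM or more in every library. None passed the adjusted threshold, 7 had positive and 4 negative log2 differences, and the median was 0.14. Hspa8, a constitutive HSP70, had 569 ± 143 FPKM in NR against 536 ± 225 in Run, and the HSP90 genes Hsp90ab1 and Hsp90aa1 had 447 ± 81.7 and 477 ± 155, and 150.1 ± 87.8 and 195 ± 44.7 (SD, n = 3 each). Ptges3, which encodes the p23 co-chaperone of the mature receptor complex, had 114 ± 47.6 and 128 ± 84.0. Stip1, which encodes the adaptor between HSP70 and HSP90, was listed at 0 in all 3 NR libraries and had 85.0, 47.7 and 62.2 FPKM in Run. Its log2 difference of 6.005 ± 1.13 (SE) had a limma unadjusted p = 0.0011 and an adjusted p = 0.244. That adjusted p was the smallest of all tested genes but was shared with others. Among those, Akr1b10, Baz1b and Blcap had a smaller unadjusted p than Stip1. Stip1 passed the filter through its 3 Run libraries alone. Its NR zeros have no spread, and the size of the difference depends on the added pseudocount. Of 11 coregulators, 6 were tested, 2 with positive and 4 with negative differences and a median of -0.35. Ncoa1, a coactivator, had 6.95, 6.58 and 0.0108 FPKM in NR against 34.7, 1.99 and 28.3 in Run. The corepressor gene Ncor1 had 18.9, 15.8 and 5.30 in NR against 32.4, 33.0 and 0 in Run. The chromatin remodeller genes Smarca2 and Smarca4 had 52.8, 29.5 and 27.1, and 0.0330, 12.9 and 13.2 in NR, against 122, 8.10 and 0.0239, and 12.6, 19.7 and 12.9 in Run.

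Hormone supply to the receptors depends on enzymes and pumps inside the tissue. Of the 8 genes listed for them, 1 enzyme gene was at 1 FPKM or more in every library. Hsd11b1, whose product regenerates active corticosterone from its inert form, had 69.4, 96.8 and 62.3 FPKM in NR against 99.7, 131.5 and 76.0 in Run. The groups overlapped (76.2 ± 18.2 and 102 ± 27.9 FPKM, SD, n = 3 each; limma adjusted p = 0.978). Hsd11b2, whose product inactivates the hormone, was listed at 0 in all 6 libraries. Abcb1a, the endothelial drug pump gene whose product exports corticosteroids, had 0.00872, 10.02 and 3.48 FPKM in NR against 24.6, 10.2 and 17.9 in Run. All Run values were above all NR values, as for 4.76% of all tested genes, narrowly so for NR replicate 2 and Run replicate 2. The log2 difference of Abcb1a was 2.26 ± 1.37 (SE; limma adjusted p = 0.978). The list of 8 genes had 2 tested members, both with positive differences and with a median of 1.33.

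Further glucocorticoid-induced genes were measured beside the 7 targets. Of 25, 16 were tested, 9 had positive and 7 negative differences, the median was 0.10, and none reached an unadjusted p under 0.05. The metallothionein genes Mt1 and Mt2, which bind zinc and copper, had 2931 ± 1446 and 359.5 ± 163 FPKM in NR against 2853 ± 320.3 and 366 ± 92.5 in Run (SD, n = 3 each). Gadd45g, a growth arrest gene, had 385, 56.6 and 668 FPKM in NR against 425, 357 and 351 in Run, again with NR replicate 2 as the lowest. Nfkbia, which encodes the inhibitor of NF-kappa B, had 205 ± 67.4 and 353 ± 177. Among relatives of the GILZ and SGK genes, 5 of 8 were tested, with 1 positive and 4 negative differences and a median of -0.47. Tsc22d1 had 367 ± 89.3 FPKM in NR against 303 ± 173 in Run, and Tsc22d4 had 310.1 ± 254 and 225 ± 68.4. Ndrg2 and Ndrg1, whose products are known substrates of SGK1, had 614 ± 409.6 and 75.1 ± 22.4 in NR against 679 ± 50.6 and 50.8 ± 62.9 in Run.

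Per1 was also set beside other clock genes, of which 10 of 16 were tested, 6 with positive and 4 with negative differences and a median of 0.77. Tef, a clock output transcription factor gene, had 0, 2.69 and 0 FPKM in NR against 27.9, 24.9 and 27.7 in Run. Its log2 difference of 4.17 ± 1.19 (SE) had a limma unadjusted p = 0.00978 and an adjusted p = 0.440. All Run values of Tef were above all NR values, as for 4.76% of all tested genes. Nr1d1, which encodes the repressor REV-ERB alpha, had 102, 38.5 and 116 FPKM in NR against 6.15, 74.3 and 192 in Run. Bhlhe40 had 132, 0 and 19.7 in NR against 16.7, 28.2 and 17.9 in Run. Cry2 and Rora had 0.0091, 0 and 128, and 94.7, 0.0425 and 41.1 in NR, against 0.0595, 32.4 and 41.6, and 0, 14.1 and 0.00927 in Run. The sources used here do not give the hour of tissue collection. Of 11 mTORC1 and energy stress genes around Ddit4, 4 were tested, 3 with positive differences and a median of 0.86. Rheb, the activator of mTORC1, had 96.3 ± 61.6 and 145 ± 44.5 FPKM (SD, n = 3 each). The stress genes Atf4 and Ddit3 had 43.1, 28.4 and 115, and 0, 0 and 43.0 in NR, against 124, 0 and 69.7, and 56.8, 0.0528 and 169.6 in Run, and Txnip had 0, 61.0 and 41.9 in NR against 11.2, 65.7 and 20.2 in Run.

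Activity-induced genes, as a sum, were also lowest in NR replicate 2 within their group. Summed over 7 immediate early genes, the level was 1273, 319 and 1793 FPKM in NR against 1230, 375 and 1038 in Run, so that replicate 2 of each group was the lowest. Run replicate 2 nonetheless had the highest Tsc22d3 and Sgk1 of all libraries. Of the 5 tested, Nr4a1, an orphan nuclear receptor gene, had 355, 142 and 315 FPKM in NR against 159, 100.7 and 68.6 in Run. Its groups overlapped through NR replicate 2 and Run replicate 1, Run replicate 3 was its lowest library, and its log2 difference was -1.28 ± 0.58 (SE; limma unadjusted p = 0.0644, adjusted p = 0.978). Fos had 378, 67.6 and 590.2 FPKM in NR against 525, 129.9 and 394 in Run. Egr1 had 107, 6.10 and 174 FPKM in NR against 208, 39.0 and 220.2 in Run, and Junb had 351, 90.4 and 616 in NR against 284, 106 and 339 in Run. The list's median was -0.31, with 2 positive and 3 negative differences.

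**Figure D4:**
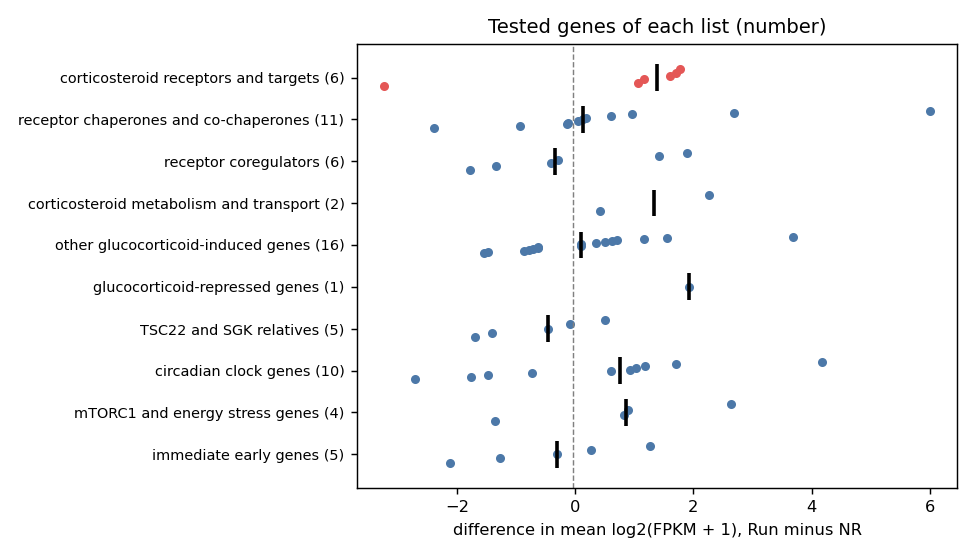
Difference in mean log2(FPKM + 1), Run minus NR (x axis), of each tested gene (points) in the receptor and target set (red) and in the lists around it (blue), with the number tested in brackets, black bars at list medians and a dashed line at the median of all tested genes (-0.03). Of the red points, 5 lie between 1.06 and 1.78 and Errfi1 at -3.23, and the point farthest to the right is Stip1 at 6.005.

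Over the 11 lists, 60 of 117 genes were tested and none passed the adjusted threshold. An unadjusted p under 0.05 by limma was found for 2, Stip1 and Tef, both higher in Run. Of all tested genes, 2.45% were so called higher and 2.49% lower in Run. Stip1 was in the test through its Run libraries alone.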

How the data were processed

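The deposited table holds FPKM values made by the authors, with a row per gene symbol and 1 column for each library. The build, per the submitters' processing notes, was mm10 and the tools included Trimmomatic 0.39, STAR 2.7.5c, StringTie 2.1.7, DESeq2 and edgeR. The tool and annotation behind the values are not given in the sources used here. Gene coordinates came from GENCODE M21 on the same build, which matched all 9 genes. No overlapping gene in that annotation with a value in the table exceeded 0.01 FPKM.

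Differences were computed here on log2(FPKM + 1), Run minus NR, which understates changes of low genes. Genes that reached 1 FPKM in 3 or more libraries were tested, 2-sided, with limma 3.58.1 under R 4.3.3, a trend of variance on mean and Benjamini-Hochberg adjustment over all 6155 tested genes. The script was tested on simulated data. FPKM keeps no read totals, so depth is unknown. Means ± SD are limited to genes at 1 FPKM or more in every library. In the lists, the text names up to 4 genes per list, the highest by mean FPKM, and any with an unadjusted p under 0.05. The steroid enzyme, ERBB, marker and housekeeping genes named beyond this were chosen after their values were seen. Some genes that this rule names are not reported here. The genes and lists were chosen with earlier results of these data known. Alternatives were other pseudocounts, filters, scalings and variance models, a replicate block and leaving out each library.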

Additional observations from a re-analysis of the deposited data

How the results depend on the processing

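No gene, receptor, target or list gene passed the adjusted threshold in any of the 15 alternatives run, where limma gave 82 to 404 genes at an unadjusted p under 0.05. None of the 6 tested receptor and target genes changed direction in any of them. Errfi1 had a log2 difference of -4.41 to -1.74 over the pseudocounts, filters, scalings and models, and -4.03 to -2.19 when a library was left out, with adjusted p of 0.712 to 1 over all of these. Its limma unadjusted p was 0.0312 without the variance trend, 0.0346 without the filter, 0.0471 with median ratio scaling and 0.0392 without Run replicate 1. In every other alternative that tested Errfi1 it was above 0.05, up to 0.155 without NR replicate 1. Leaving out a library moved Nr3c1 between 0.38 and 2.68, Sgk1 between 0.53 and 2.60, Tsc22d3 between 0.56 and 1.49 and the mean log2 level of the 9 genes between -0.10 and 0.56. Fkbp5, untested in the main comparison, ranged from -0.71 to 1.21 when a library was left out. Nr3c2 had -5.27 with a pseudocount of 0.1 and -1.03 with 10. The low values and the many zeros limit what the low genes can show. The labels state no pairing by replicate number. Deviations from group means correlated at 0.0042 to 0.021 for the same number, and each library correlated best with its own number. With 3 libraries per group these correlations cannot decide whether libraries were paired. With the replicate number as a block, limma called 0 genes, 251 had an unadjusted p under 0.05, and the difference in the mean level of the 9 genes stayed at 0.34.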

Other observations

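Genes that glucocorticoids are known to repress were detected in few libraries. Of 10, 5 were listed at 0 in all 6 libraries, among them Crh, the stress hormone gene of the hypothalamus, and the cytokine genes Il6 and Tnf. Pomc, the precursor gene of the pituitary stress hormone ACTH, had 0, 20.6 and 21.9 FPKM in NR and was listed at 0 in all 3 Run libraries. The chemokine gene Ccl2 had 0, 0 and 64.0 FPKM in NR against 26.3, 128 and 0 in Run, with 1.92 as its log2 difference and a limma unadjusted p = 0.459. Vcam1, an adhesion molecule gene of vessels, had 0.00032, 74.0 and 28.2 in NR against at most 0.0433 in Run. Of all genes with FPKM of at least 1 in exactly 2 libraries, 21% had both in NR, as Pomc and Vcam1 did. Icam1 had 41.1, 0 and 0 FPKM in NR against 36.6, 0 and 0 in Run. Il1b had 0, 0 and 7.40 in NR against 0, 5.07 and 0 in Run. The genes named from this list were chosen after their values were seen, except Ccl2.

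Other steroid hormone receptors were sparse as well. Pgr, the progesterone receptor gene, had 2.09 FPKM in NR replicate 3 and 3.63 in Run replicate 1 and was listed at 0 in the other 4 libraries. The estrogen receptor gene Esr1 stayed below 1 FPKM in every library, and Esr2 was listed at 0 in all 6.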
